A study of Mus musculus with 6 samples.

Results

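The Wnt and β-catenin signaling genes described here were *Lrp5*, *Lrp6*, *Lgr4*, *Dvl1*, *Axin1*, *Apc*, *Gsk3b*, *Csnk1a1*, *Ctnnb1* and *Tcf7l2*. They were chosen by name, as Wnt receptors, members of the β-catenin destruction complex and effectors of the pathway. All 10 had a row among the 12125 genes listed, and all 10 passed the filter on low values, for which 3 or more libraries had to hold 10 or more normalized counts. RNA came from kidney cells of 3 *Trf1*+/+ and 3 *Trf1*flox/flox mice, with 1 library of 500 sorted cells per mouse. Mice of both genotypes carried a *Col1a2*-CreERT2 transgene, in which the promoter of the collagen gene *Col1a2* drives a tamoxifen-dependent Cre, and a Katushka fluorescent protein (KFP) reporter that Cre switches on. Males and females aged 6 to 8 weeks at the start received tamoxifen 3 times a week for 8 weeks, and cells were then sorted by KFP and by CD29, an integrin. In *Trf1*flox/flox mice Cre also deletes *Trf1*, the gene of a telomere-binding protein, listed here as *Terf1*. Whether the sequenced cells carried both sorting markers is not given in the sources used here.

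In canonical Wnt signaling a complex of APC, AXIN1 and the kinases CK1α and GSK3β marks β-catenin for destruction as long as no ligand is present. A Wnt ligand bridges a Frizzled receptor to LRP5 or LRP6, Dishevelled proteins are recruited, the complex is disabled and β-catenin enters the nucleus, where it acts with TCF and LEF factors. LGR4 binds R-spondins and keeps Frizzled and LRP receptors on the surface. In the kidney the pathway is known for its part in nephron formation and, in adults, in injury and fibrosis.

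The values are normalized counts, the reads of a gene divided by a size factor per library, with 10263382 to 12248797 reads in the listed genes of a library. Values of a genotype are given in the order of replicates 1, 2 and 3, and coordinates are those of the mouse build GRCm38. *Terf1* (ENSMUSG00000025925, chromosome 1, 15805646 to 15844052) had 0.891, 253 and 235 normalized counts (*Trf1*+/+) against 110.0, 7.65 and 12.4 (*Trf1*flox/flox). The library labelled *Trf1*+/+ replicate 1 held a single *Terf1* read, which goes against its label, and *Trf1*flox/flox replicate 1 held 128 *Terf1* reads, where the other *Trf1*flox/flox libraries held 7 and 18. For *Terf1* the log2 fold change was -1.04 ± 2.63 (SE, adjusted p = 0.985 from limma), between -3.38 (without *Trf1*+/+ replicate 1) and 0.15 (without *Trf1*+/+ replicate 2) with a library left out. The library labelled *Trf1*+/+ replicate 1 also stood apart in its median of 13.4 normalized counts per gene, against 118 to 148 in the other 5 libraries. It had no read for 12.9% of the genes at 100 or more normalized counts in the other libraries. For *Trf1*flox/flox replicate 2 this share was 9.01%. The remaining libraries ranged from 0.932% (*Trf1*flox/flox replicate 3) to 3.68% (*Trf1*flox/flox replicate 1). Whether such gaps account for the single *Terf1* read, or for low values of these libraries given below, was not tested. All libraries are used as labelled. No fold change given below had an adjusted p under 0.05, most moved by over 1.5 times or turned when a library was left out, and the range over the fits that each lacked a library is given where that was so. Of 10 fibroblast markers only *Col1a2* and *Dcn* had a row, their summed level was 1.66 to 94.6 in *Trf1*+/+ and 2.58 to 98.4 in *Trf1*flox/flox libraries, and *Col1a2* had at most 2 reads in every library. Proximal tubule markers (10 of 10 with a row) summed to 31732 to 158319.9 in *Trf1*+/+ and 41582 to 164296 in *Trf1*flox/flox libraries, with *Lrp2* at 474 to 6454. Markers of the loop of Henle and distal tubule (6 of 6) summed to 74647 to 121134 in *Trf1*+/+ and 55809 to 138612 in *Trf1*flox/flox libraries, with *Umod* at 21896 to 80777, and collecting duct markers (8 of 8) to 641 to 10162 in *Trf1*+/+ and 1609.7 to 18381 in *Trf1*flox/flox libraries. Summed erythroid markers (5 of 5) were 238 to 10472 in *Trf1*+/+ and 121 to 52403 in *Trf1*flox/flox libraries, leukocyte markers (4 of 9) 279.8 to 1283 in *Trf1*+/+ and 172 to 2574 in *Trf1*flox/flox libraries, and endothelial markers (1 of 8, *Pecam1*) 7.13 to 9.11 in *Trf1*+/+ and 0.859 to 12.0 in *Trf1*flox/flox libraries; no podocyte marker (0 of 4) had a row. The values of the Wnt genes are therefore described for the cells sequenced, in which tubule markers were high and fibroblast markers low or without a row. Such bulk libraries cannot tell fewer cells of a type from less RNA per cell.

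None of the 10 genes passed the test between genotypes. At an adjusted p under 0.05 limma called 0 of the 10 and 0 of all 9966 genes tested (0%). At an unadjusted p under 0.05 it placed 0 of the 10, against 3.13% of all genes tested (2.1% with *Trf1*flox/flox higher and 1.03% with it lower). edgeR and DESeq2, run on the recovered reads, called 0 of the 10 at an adjusted p under 0.05, against 0% and 0.582% of all genes tested, and DESeq2 gave no adjusted p for *Lrp5*. At an unadjusted p under 0.05 they also placed 0 of the 10, against 1.97% and 4.11%. The log2 fold change, here the difference of *Trf1*flox/flox minus *Trf1*+/+ in the mean of log2(normalized count + 1), was positive for 5 genes and negative for 5, and over all genes tested it was positive for 55.9%. Its median was -0.20 over the 10 genes and 0.20 over all genes tested, and with all libraries set to a common upper quartile these medians were 0.03 and 0.44. This quartile, taken over values above 0, was 872 normalized counts in the library labelled *Trf1*+/+ replicate 1 and 363 to 576 in the others. The scaling therefore lowered the values of that library the most. With a library left out the median over the 10 genes lay between -0.73 (without *Trf1*+/+ replicate 2) and 0.29 (without *Trf1*flox/flox replicate 1), so it had no settled sign. For 8 of the 10 the fold change was smaller than its standard error (SE). limma draws the variance of a gene towards that of genes with a similar level, so an SE can exceed what the 6 values of that gene alone give.

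The 2 exceptions were both kinases of the destruction complex, *Gsk3b* and *Csnk1a1*, and they differed in opposite directions. These were also the 2 of the 10 genes whose groups did not overlap. Over all genes tested the groups did not overlap for 8.68%, 5.35% with *Trf1*flox/flox higher and 3.33% with it lower. With the upper quartile scaling *Csnk1a1* overlapped and *Gsk3b* did not, so 1 of the 10 remained, against 8.69% of all genes tested, 6.47% higher and 2.22% lower. With 1 library left out, 2 to 4 of the 10 genes did not overlap. Over all genes tested the share was then 17.9%, 18.9% and 24.4% without *Trf1*+/+ replicates 1, 2 and 3 in turn, and 15.3%, 15.2% and 17.9% without *Trf1*flox/flox replicates 1, 2 and 3. The upper quartile scaling also moved the split of all such genes, from 533 of 865 higher in *Trf1*flox/flox to 645 of 866.

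**Figure D1:**
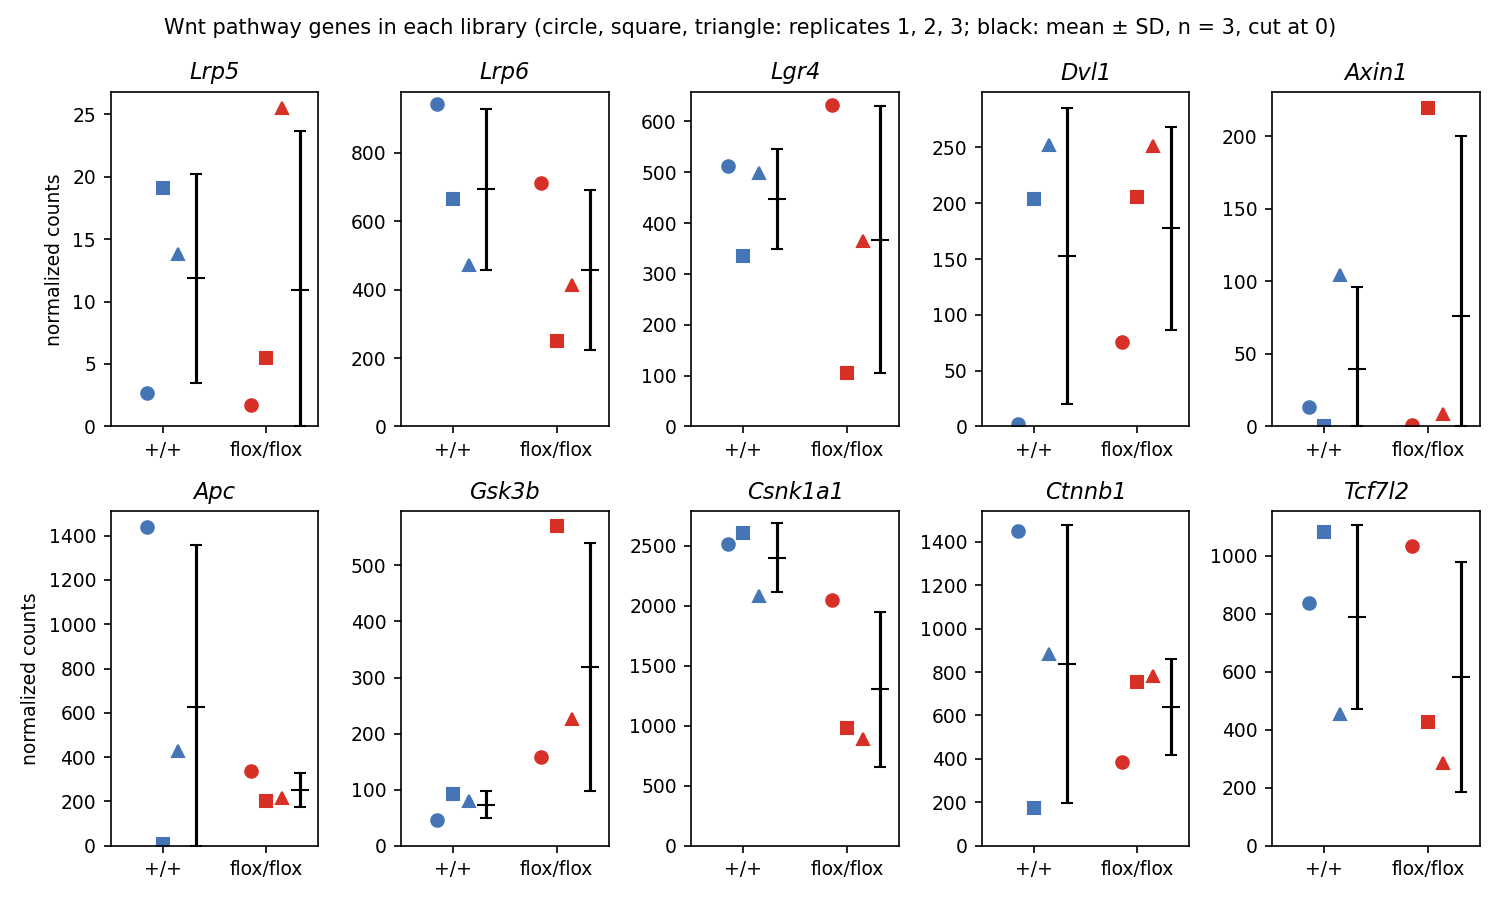
Normalized counts (vertical axis, from 0, a scale per gene) of the 10 Wnt pathway genes in the 3 Trf1+/+ (blue) and 3 Trf1flox/flox (red) libraries, with circles, squares and triangles for replicates 1, 2 and 3 and black bars for the mean ± SD (n = 3), cut at 0. Only Gsk3b and Csnk1a1 show groups that do not overlap, and Csnk1a1 narrowly so, with 2077 in the lowest Trf1+/+ and 2049 in the highest Trf1flox/flox library.

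*Gsk3b*, which encodes the kinase GSK3β that phosphorylates β-catenin for its destruction (ENSMUSG00000022812, chromosome 16, 38089001 to 38246084), had 46.3, 92.8 and 79.8 normalized counts (*Trf1*+/+) against 159, 570.5 and 227 (*Trf1*flox/flox). Each *Trf1*flox/flox library was above each *Trf1*+/+ library, and the spread was wider in *Trf1*flox/flox, where replicate 2 was the highest. The group values were 73.0 ± 24.0 for *Trf1*+/+ against 319 ± 221 for *Trf1*flox/flox (mean ± SD, n = 3 each), a ratio of means of 4.37. The log2 fold change was 1.95 ± 1.30 (SE, 95% interval -0.89 to 4.79, unadjusted p = 0.16, adjusted p = 0.970 from limma). It lay between 1.43 (without *Trf1*flox/flox replicate 2) and 2.34 (without *Trf1*flox/flox replicate 1) when single libraries were left out and was 1.66 without the library labelled *Trf1*+/+ replicate 1. The fold change was 2.08 in edgeR (unadjusted p = 0.195, adjusted p = 0.9995) and 2.13 in DESeq2 (unadjusted p = 0.0501, adjusted p = 0.9999). In limma without the trend of variance with level, the SE was 0.87 and the unadjusted p 0.0657 (adjusted p = 0.996), and for *Csnk1a1* they were 0.78 and 0.255, so the order of both genes by p depended on how the spread was modelled.

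*Csnk1a1* encodes CK1α, the kinase that primes β-catenin for GSK3β (ENSMUSG00000024576, chromosome 18, 61555274 to 61590061). It had 2519, 2609 and 2077 normalized counts (*Trf1*+/+) against 2049, 980.3 and 885 (*Trf1*flox/flox). *Trf1*flox/flox replicate 1 lay just under the lowest *Trf1*+/+ library, and the other 2 *Trf1*flox/flox libraries lay far below. The group values were 2402 ± 285 for *Trf1*+/+ against 1305 ± 646 for *Trf1*flox/flox (mean ± SD, n = 3 each), a ratio of means of 0.543. With a log2 fold change of -0.98 ± 0.50 (SE, 95% interval -2.08 to 0.12, unadjusted p = 0.0764, adjusted p = 0.970 from limma), it had the smallest p of the 10 in this fit. Without *Trf1*flox/flox replicate 1 its unadjusted p was 0.0354 and its adjusted p 0.999 in limma. The fold change lay between -1.36 and -0.75 over the fits that each lacked a library, and it was -0.70 with the upper quartile scaling, -0.86 in edgeR and -0.87 in DESeq2.

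A ratio of reads inside a library does not depend on the size factors. For each 100 *Csnk1a1* reads there were 1.84, 3.56 and 3.84 *Gsk3b* reads (*Trf1*+/+) against 7.76, 58.2 and 25.6 (*Trf1*flox/flox). The groups did not overlap, but the pair was picked after its values were seen, so the ratio is a description with no test. Against 100 *Ctnnb1* reads, *Gsk3b* had 3.19, 53.8 and 9.03 reads (*Trf1*+/+) against 41.5, 75.9 and 28.9 (*Trf1*flox/flox), which overlapped, with the highest *Trf1*+/+ ratio in replicate 2, where *Ctnnb1* was lowest. *Csnk1a1* had 174, 1514 and 235 and 535, 130.4 and 113 reads per 100 of *Ctnnb1*, again with overlap.

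**Figure D2:**
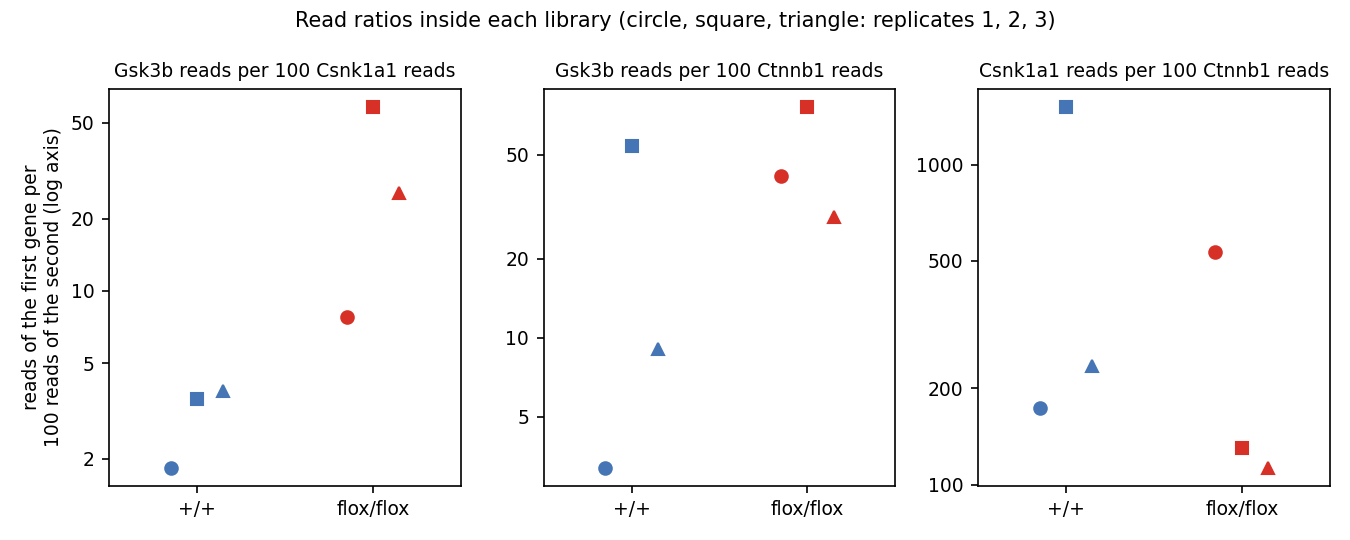
Reads of one gene per 100 reads of another inside each library (log axis) for Gsk3b over Csnk1a1, Gsk3b over Ctnnb1 and Csnk1a1 over Ctnnb1, with blue for Trf1+/+ and red for Trf1flox/flox and a symbol per replicate. The first ratio runs from 1.84 to 3.84 in Trf1+/+ and from 7.76 to 58.2 in Trf1flox/flox libraries, and the other 2 ratios overlap.

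For both scaffolds of the destruction complex the libraries of a genotype lay far apart. *Apc*, whose product binds β-catenin and AXIN (ENSMUSG00000005871, chromosome 18, 34220924 to 34322552), had 1438, 8.29 and 427 normalized counts (*Trf1*+/+) against 339, 200.0 and 217 (*Trf1*flox/flox). The *Trf1*+/+ values enclosed all *Trf1*flox/flox values, with the highest in the library labelled replicate 1 and the lowest, from 10 reads, in replicate 2. Its log2 fold change was 0.46 ± 1.63 (SE, adjusted p = 0.992 from limma), although the mean in *Trf1*flox/flox was 0.403 of that in *Trf1*+/+. It was -1.67 without *Trf1*+/+ replicate 2, 1.96 without *Trf1*+/+ replicate 1, -1.17 in edgeR and -1.28 in DESeq2, so no direction is given. *Axin1*, the limiting scaffold of the complex (ENSMUSG00000024182, chromosome 17, 26138688 to 26195811), was listed at 13.4, 0 and 104 normalized counts (*Trf1*+/+) against 0.859, 219.7 and 8.27 (*Trf1*flox/flox). Each genotype held 1 library above 100 and 2 below 20, and *Axin1* was the one gene of the 10 with a library at 0. Its log2 fold change of 0.44 ± 2.52 (SE) became -1.32 without *Trf1*+/+ replicate 2, and lay between -1.47 (without *Trf1*flox/flox replicate 2) and 2.04 (without *Trf1*+/+ replicate 3) over the fits that each lacked a library.

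β-catenin itself showed a fold change near 0 with a wide interval. *Ctnnb1* (ENSMUSG00000006932, chromosome 9, 120929216 to 120960507) had 1450.1, 172 and 884 normalized counts (*Trf1*+/+) against 383, 752 and 784 (*Trf1*flox/flox). The highest and the lowest values were both in *Trf1*+/+ libraries. The group values were 835 ± 640.2 for *Trf1*+/+ against 639.5 ± 223 for *Trf1*flox/flox (mean ± SD, n = 3 each), and the log2 fold change was 0.0093 ± 0.84 (SE, 95% interval -1.82 to 1.84, adjusted p = 0.999 from limma). It was -0.89 without *Trf1*+/+ replicate 2, -0.14 and -0.17 without *Trf1*flox/flox replicates 2 and 3, 0.64 without the library labelled *Trf1*+/+ replicate 1, and -0.29 and -0.36 in edgeR and DESeq2. The libraries were not stranded, and exons of *Ctnnb1* overlap those of *Ulk4* on the opposite strand and of *Mir7090* on the same strand, so reads there cannot be told apart.

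*Tcf7l2*, which encodes the transcription factor TCF4 that β-catenin binds in the nucleus (ENSMUSG00000024985, chromosome 19, 55741820 to 55933654), had 836, 1081 and 452 and 1032, 427 and 287 normalized counts in the *Trf1*+/+ and *Trf1*flox/flox libraries. Its groups overlapped, with *Trf1*flox/flox replicate 1 close to the highest *Trf1*+/+ library. The log2 fold change was -0.56 ± 0.72 (SE, 95% interval -2.14 to 1.02, adjusted p = 0.972 from limma), and leaving out single libraries gave values between -1.08 (without *Trf1*flox/flox replicate 1) and -0.16 (without *Trf1*flox/flox replicate 3).

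Both effectors were set beside the tubule markers, a comparison chosen after the values were seen. The summed proximal tubule markers were lowest in *Trf1*+/+ replicate 2, at 31732, and *Trf1*flox/flox replicate 1, at 41582, and were 107744 or more in the other 4 libraries. *Ctnnb1* was lowest in the same 2 libraries, but its order over the other 4 was not that of the markers. *Trf1*flox/flox replicate 3, with the highest proximal sum of 164296, had less *Ctnnb1* than *Trf1*+/+ replicates 1 and 3. The summed loop and distal tubule markers were highest in these 2 libraries, at 121134 and 138612, and so was *Tcf7l2*. Ordered by the loop and distal markers, the remaining libraries ran from *Trf1*+/+ replicate 1 over *Trf1*+/+ replicate 3 and *Trf1*flox/flox replicate 2 to *Trf1*flox/flox replicate 3, and *Tcf7l2* kept that order. The part of these markers in the values of both genes was not tested.

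**Figure D3:**
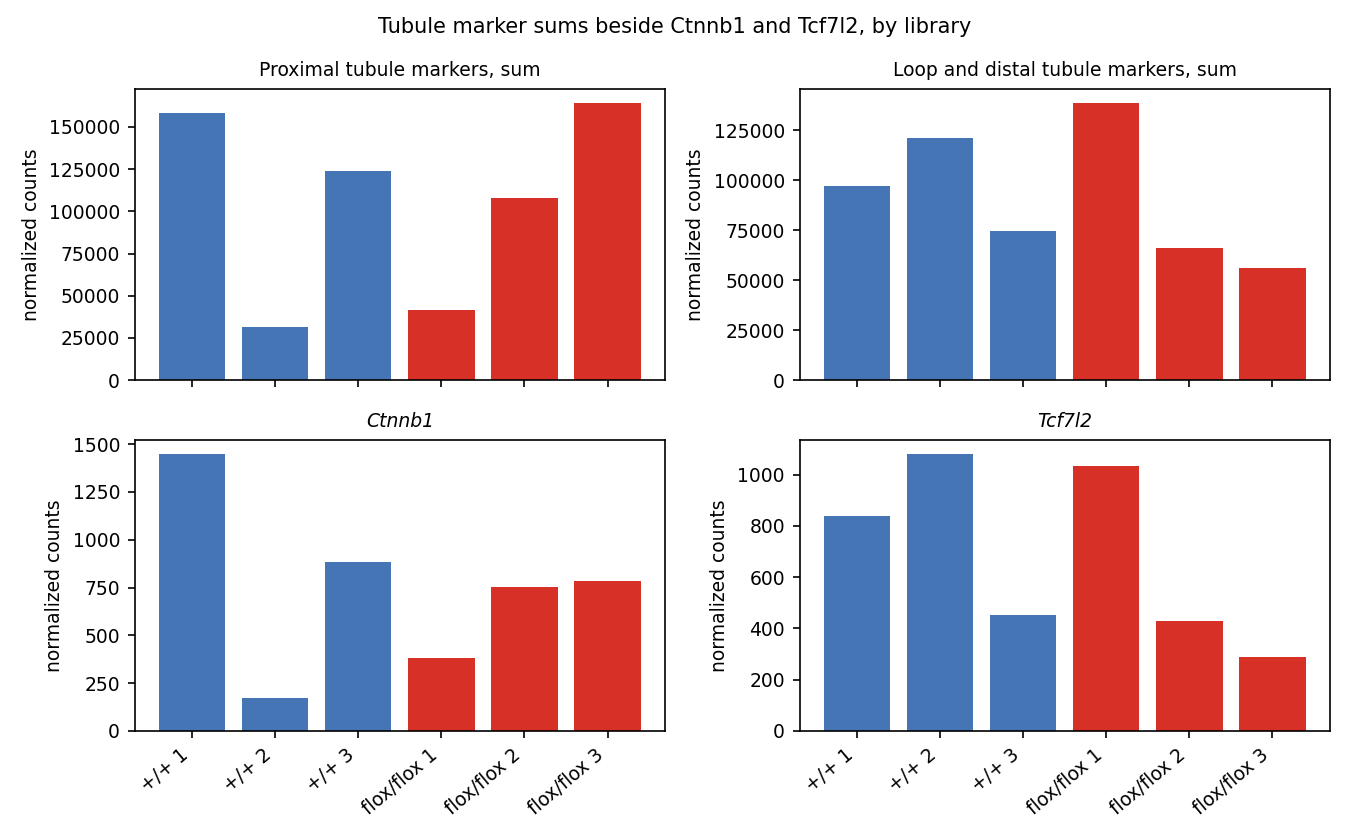
Normalized counts by library (bars from 0; blue, Trf1+/+; red, Trf1flox/flox; numbers, replicates) for the summed markers of proximal tubule and of loop of Henle and distal tubule, for Ctnnb1 and for Tcf7l2. Trf1+/+ replicate 2 and Trf1flox/flox replicate 1 have the lowest proximal sums and Ctnnb1 counts (172 and 383) and the highest loop and distal sums and Tcf7l2 counts (1081 and 1032).

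Among the receptors, the co-receptor *Lrp6* was read well in every library and its close relative *Lrp5* hardly at all. *Lrp6* (ENSMUSG00000030201, chromosome 6, 134446476 to 134566965) had 942, 666 and 472 normalized counts (*Trf1*+/+) against 711, 249 and 413 (*Trf1*flox/flox). Only *Trf1*flox/flox replicate 1 reached into the *Trf1*+/+ range. The log2 fold change was -0.67 ± 0.72 (SE, 95% interval -2.23 to 0.89, adjusted p = 0.970 from limma), between -1.05 (without *Trf1*flox/flox replicate 1) and -0.30 (without *Trf1*flox/flox replicate 2) over the fits that each lacked a library. *Lrp5* (ENSMUSG00000024913, chromosome 19, 3584828 to 3686564) had 2.67, 19.1 and 13.8 and 1.72, 5.46 and 25.5 normalized counts in the *Trf1*+/+ and *Trf1*flox/flox libraries, from 2 to 37 reads, and was at 3 reads or fewer in the replicate 1 of each genotype. For 100 *Lrp6* reads there were 0.284, 2.86 and 2.92 *Lrp5* reads (*Trf1*+/+) against 0.242, 2.19 and 6.18 (*Trf1*flox/flox). At these read numbers the fold change of *Lrp5*, -0.41 ± 1.81 (SE), gave no direction. It lay between -1.30 (without *Trf1*flox/flox replicate 3) and 0.35 (without *Trf1*flox/flox replicate 1).

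*Lgr4*, the R-spondin receptor (ENSMUSG00000050199, chromosome 2, 109917647 to 110014257), was at 512, 335 and 498 normalized counts (*Trf1*+/+) against 632, 106 and 365 (*Trf1*flox/flox). The *Trf1*flox/flox libraries held both the highest and the lowest value. Its log2 fold change was -0.60 ± 0.89 (SE, adjusted p = 0.981 from limma) and lay between -1.16 (without *Trf1*flox/flox replicate 1) and 0.13 (without *Trf1*flox/flox replicate 2) with a library left out. *Dvl1*, which encodes a Dishevelled protein that relays the signal from the receptors (ENSMUSG00000029071, chromosome 4, 155847402 to 155859303), had 1.78, 204 and 252 and 75.6, 205 and 252 normalized counts. The 1.78 stood for 2 reads in the library labelled *Trf1*+/+ replicate 1, and the other 2 *Trf1*+/+ libraries lay close to *Trf1*flox/flox replicates 2 and 3. The log2 fold change of 1.60 ± 2.02 (SE) lay between -0.52 (without *Trf1*+/+ replicate 1) and 2.73 (without *Trf1*+/+ replicate 3), so its sign rested on that library. An exon of *Dvl1* overlaps *Tas1r3* on the opposite strand.

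**Figure D4:**
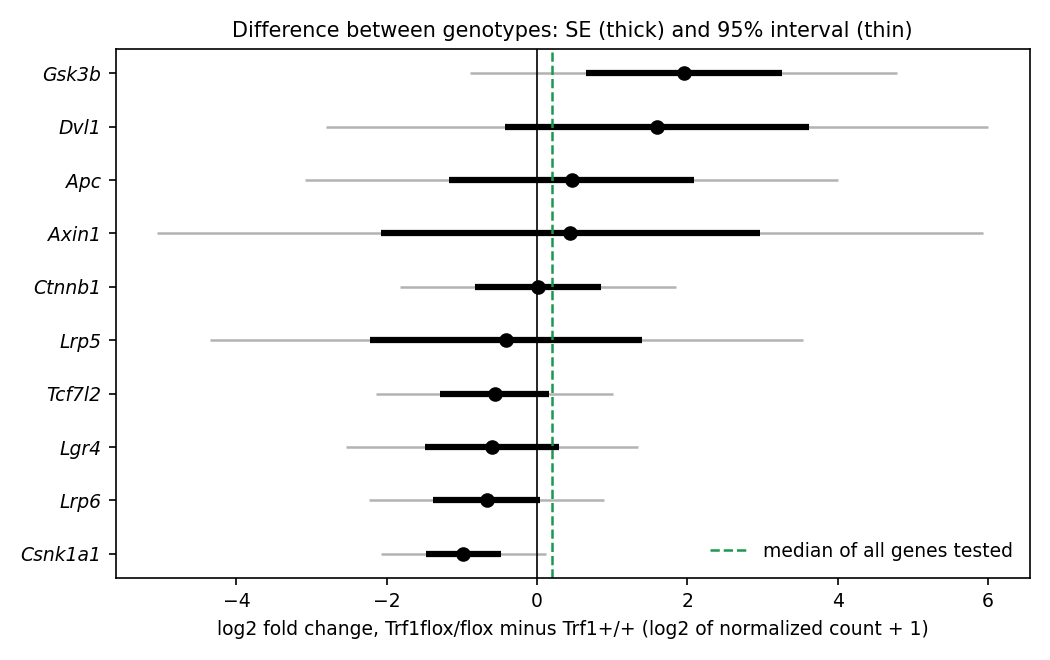
Log2 fold change of Trf1flox/flox minus Trf1+/+ for the 10 genes (horizontal axis, log2 of normalized count + 1), with the standard error as a thick and the 95% interval as a thin bar, and the median of all genes tested as a dashed line. The values run from -0.98 for Csnk1a1 to 1.95 for Gsk3b, and every 95% interval includes 0.

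Levels were compared between genes after division by the merged length of their annotated exons. The median over the 6 libraries was 196 normalized counts per kb for *Csnk1a1*, 148 for *Ctnnb1*, 73.4 for *Tcf7l2* and 73.3 for *Lgr4*. *Lrp6* and *Dvl1* followed at 41.6 and 41.0 per kb, then *Apc* at 17.2 and *Gsk3b* at 12.8. The lowest levels were those of *Axin1*, at 2.83, and *Lrp5*, at 0.989 per kb. Of all listed genes with a length, 86.2% had a lower median than *Csnk1a1* and 15.1% a lower one than *Lrp5*. The ranges over the libraries overlapped for all 9 pairs of neighbours in this order, and the upper gene of a pair was higher in 3 to 5 of the 6 libraries, so none of these steps exceeded the spread. Spread itself differed among the 10. The pooled standard deviation of log2 values within a genotype was 0.48 for *Csnk1a1*, the lowest, and 3.44 for *Axin1*, the highest, with a median of 1.08 over the 10 and of 2.17 over all genes tested.

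Among the relatives of the 10 genes, named after their values were seen, *Csnk1e* was the one of 9 tested whose groups did not overlap, beside 8.68% of all genes tested. This outcome was fixed by the filter, which *Csnk1e* passed only through its *Trf1*flox/flox values. *Gsk3a*, which encodes the closely related GSK3α, had 71.3, 27.3 and 31.5 normalized counts (*Trf1*+/+) against 62.7, 31.7 and 20.0 (*Trf1*flox/flox), with a log2 fold change of -0.20 ± 2.15 (SE) that lay between -0.63 (without *Trf1*flox/flox replicate 1) and 0.21 (without *Trf1*+/+ replicate 1) with a library left out. Whether it differed from *Gsk3b* in its fold change was not tested. Of the other casein kinase 1 genes, *Csnk1e* was near 0 in *Trf1*+/+ and had 85.9, 163 and 21.4 normalized counts in *Trf1*flox/flox libraries, and *Csnk1d* had 868, 969 and 172 normalized counts (*Trf1*+/+) against 617, 4.37 and 155 (*Trf1*flox/flox). CK1ε and CK1δ act with Dishevelled. *Csnk1d* overlapped between the genotypes, with the lowest value in *Trf1*flox/flox replicate 2. Its log2 fold change was -2.71 ± 1.62 (SE, adjusted p = 0.970 from limma). It lay between -4.19 (without *Trf1*flox/flox replicate 1) and -0.76 (without *Trf1*flox/flox replicate 2) with a library left out. *Csnk1g1*, *Csnk1g2* and *Csnk1g3*, whose products sit at the membrane and phosphorylate LRP6, overlapped too, and their fold changes of 1.24, 1.32 and -1.90 all turned sign when a library was left out. That of *Csnk1g1* lay between -0.70 (without *Trf1*+/+ replicate 1) and 2.49 (without *Trf1*+/+ replicate 2), that of *Csnk1g2* between -0.16 (without *Trf1*flox/flox replicate 1) and 3.76 (without *Trf1*flox/flox replicate 2) and that of *Csnk1g3* between -3.70 (without *Trf1*+/+ replicate 3) and 0.79 (without *Trf1*flox/flox replicate 1). *Dvl3* had a log2 fold change of -0.63 ± 1.35 (SE), between -1.93 (without *Trf1*+/+ replicate 1) and 0.13 (without *Trf1*+/+ replicate 3), and *Tcf7l1* one of 1.14 ± 2.11 (SE), between -0.31 (without *Trf1*flox/flox replicate 1) and 2.90 (without *Trf1*flox/flox replicate 2). *Jup*, which encodes plakoglobin, had one of 0.96 ± 1.01 (SE), between 0.47 (without *Trf1*flox/flox replicate 2) and 1.47 (without *Trf1*flox/flox replicate 1). *Dvl2* did not pass the filter, with 191, 2.49 and 0 and 251, 0 and 3.45 normalized counts.

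The rest of the pathway was described with lists by role that held 161 further genes, of which 95 had a row and 82 were tested. Of these, 41 had a positive and 41 a negative log2 fold change, with a median of 0.0037 against 0.20 over all genes tested. With the upper quartile scaling 46 were positive, with medians of 0.28 and 0.44, and without the library labelled *Trf1*+/+ replicate 1, where 48.9% of all genes tested had a positive fold change, 33 of the 82 did. *Znrf3* stands in 2 of the lists. None of the 82 was called by limma, edgeR or DESeq2 at an adjusted p under 0.05, against 0%, 0% and 0.582% of all genes tested. At an unadjusted p under 0.05 limma placed 1 of the 82, against 3.13% of all genes tested. The groups did not overlap for 4 of the 82, *Csnk1e* and *Tle3* higher and *Vps26a* and *Nlk* lower in *Trf1*flox/flox, beside 8.68% of all genes tested. For *Csnk1e* this followed from the filter, which it passed only through the *Trf1*flox/flox libraries. *Nlk* was named after its values were seen.

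On the sending side, 2 of the 24 ligands had a row and only *Wnt5a* was tested, with 1.78, 3.31 and 60.1 normalized counts (*Trf1*+/+) against 16.3, 0 and 57.2 (*Trf1*flox/flox). Its log2 fold change was 0.15 ± 2.14 (SE), and it lay between -1.12 (without *Trf1*flox/flox replicate 3) and 1.82 (without *Trf1*flox/flox replicate 2). Genes of ligand release had 2 positive and 7 negative fold changes among 9 tested, with a median of -0.44 that was -0.16 with the upper quartile scaling and lay between -0.73 (without *Trf1*+/+ replicate 3) and -0.22 (without *Trf1*+/+ replicate 1) with a library left out. *Vps26a*, a subunit of the retromer that returns the Wnt carrier WLS to the Golgi, had 1942, 1142 and 1072 normalized counts (*Trf1*+/+) against 394, 873 and 461 (*Trf1*flox/flox). It lay lower in all 3 *Trf1*flox/flox libraries, with a log2 fold change of -1.30 ± 0.60 (SE, unadjusted p = 0.0527, adjusted p = 0.970 from limma). *Snx3*, a sorting nexin that works with the retromer, had 6018, 3223 and 2167 normalized counts (*Trf1*+/+) against 1889, 1508 and 2253 (*Trf1*flox/flox), with overlap and a log2 fold change of -0.90 ± 0.49 (SE) that lay between -1.24 (without *Trf1*+/+ replicate 3) and -0.51 (without *Trf1*+/+ replicate 1).

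The other receptors were split, with 5 positive and 3 negative fold changes among 8 tested and a median of 0.37, which lay between -0.39 (without *Trf1*+/+ replicate 1) and 1.48 (without *Trf1*+/+ replicate 3) with a library left out. The Frizzled genes *Fzd3* and *Fzd4* had the smallest p among them. *Fzd3* had 0.891, 3.31 and 204 normalized counts (*Trf1*+/+) against 320.5, 616 and 57.2 (*Trf1*flox/flox), with a log2 fold change of 4.25 ± 2.39 (SE), between 2.93 (without *Trf1*+/+ replicate 1) and 6.31 (without *Trf1*+/+ replicate 3). *Fzd4* had 2.67, 862 and 257 normalized counts (*Trf1*+/+) against 2005, 293 and 438 (*Trf1*flox/flox), and its log2 fold change of 2.77 ± 1.74 (SE) lay between 0.43 (without *Trf1*+/+ replicate 1) and 4.37 (without *Trf1*+/+ replicate 2), with 3 reads in *Trf1*+/+ replicate 1. Genes of receptor turnover and secreted antagonists numbered 4 tested, 1 positive and 3 negative, with a median of -0.52 that was -0.24 with the upper quartile scaling and lay between -0.58 (without *Trf1*flox/flox replicate 1) and -0.11 (without *Trf1*flox/flox replicate 2). *Sostdc1*, a secreted antagonist that binds LRP co-receptors and BMPs, had 15162, 14011 and 7573 normalized counts (*Trf1*+/+) against 13412, 6318 and 4876 (*Trf1*flox/flox). Its groups overlapped, and its log2 fold change was -0.65 ± 0.47 (SE), -0.37 with the upper quartile scaling and between -1.08 (without *Trf1*flox/flox replicate 1) and -0.35 (without *Trf1*flox/flox replicate 3) with a library left out. *Usp8*, a deubiquitinase that acts on Frizzled, had 302, 512 and 1119 normalized counts (*Trf1*+/+) against 1061, 42.6 and 453 (*Trf1*flox/flox), and its log2 fold change of -1.02 ± 1.13 (SE) lay between -1.99 (without *Trf1*flox/flox replicate 1) and 0.31 (without *Trf1*flox/flox replicate 2).

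Among the other genes of signal relay, 3 of 10 tested had a positive fold change, and the median was -0.56, -0.34 with the upper quartile scaling and between -0.82 (without *Trf1*+/+ replicate 1) and -0.04 (without *Trf1*+/+ replicate 2) with a library left out. *Csnk1e* had 0, 3.31 and 0.985 normalized counts (*Trf1*+/+) against 85.9, 163 and 21.4 (*Trf1*flox/flox). The *Trf1*+/+ values stood for 0, 4 and 1 reads. All 3 were under the 10 normalized counts of the filter, so *Csnk1e* passed it only through the *Trf1*flox/flox libraries. Groups that do not overlap follow from this, and its p is given as a description only. The log2 fold change of *Csnk1e* was 5.06 ± 1.94 (SE, unadjusted p = 0.0231, adjusted p = 0.970 from limma), the smallest p among the pathway genes. It lay between 4.43 and 5.87 over the fits that each lacked a library. *Ccny*, which encodes the cyclin Y that helps to phosphorylate LRP6, had 1776, 926 and 468 normalized counts (*Trf1*+/+) against 497, 382 and 207 (*Trf1*flox/flox). These overlapped, and the log2 fold change was -1.43 ± 0.74 (SE), between -1.91 (without *Trf1*+/+ replicate 3) and -0.95 (without *Trf1*+/+ replicate 1).

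The other genes of the destruction complex and of β-catenin turnover had 11 positive and 8 negative fold changes among 19 tested, and their median was 0.92, which lay between 0.21 (without *Trf1*+/+ replicate 1) and 1.02 (without *Trf1*flox/flox replicate 1) with a library left out and was 0.25 and 0.21 in edgeR and DESeq2. No gene of this list had groups that did not overlap, beside 8.68% of all genes tested. *Amer1*, which recruits APC to the membrane, had 0.891, 7.46 and 159 normalized counts (*Trf1*+/+) against 266, 521 and 91.7 (*Trf1*flox/flox). The tankyrase gene *Tnks2*, whose product marks AXIN for degradation, had 1251, 432 and 286 normalized counts (*Trf1*+/+) against 580.0, 19.7 and 171 (*Trf1*flox/flox). Both overlapped. For *Amer1* the log2 fold change was 4.10 ± 2.25 (SE), between 2.68 (without *Trf1*+/+ replicate 1) and 5.88 (without *Trf1*+/+ replicate 3). That of *Tnks2* was -2.08 ± 1.26 (SE), between -3.17 (without *Trf1*flox/flox replicate 1) and -0.77 (without *Trf1*flox/flox replicate 2).

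The nuclear effectors had 13 positive and 10 negative fold changes among 23 tested and a median of 0.20, which lay between -0.49 (without *Trf1*+/+ replicate 1) and 0.54 (without *Trf1*+/+ replicate 2) with a library left out and was 0.52 with the upper quartile scaling and -0.25 and -0.30 in edgeR and DESeq2. *Tle3*, a Groucho co-repressor of TCF factors, had 1.78, 58.0 and 27.6 normalized counts (*Trf1*+/+) against 138, 148 and 131 (*Trf1*flox/flox). The *Trf1*flox/flox libraries were close to each other and above the *Trf1*+/+ libraries. The log2 fold change of 3.06 ± 2.16 (SE) lay between 1.77 (without *Trf1*+/+ replicate 1) and 3.97 (without *Trf1*+/+ replicate 2). In the library labelled *Trf1*+/+ replicate 1 *Tle3* had 2 reads. *Nlk*, a kinase that acts on TCF and LEF factors, had 94.4, 113 and 159.6 normalized counts (*Trf1*+/+) against 85.1, 35.0 and 55.8 (*Trf1*flox/flox), with a log2 fold change of -1.10 ± 1.67 (SE), between -1.41 (without *Trf1*flox/flox replicate 1) and -0.78 (without *Trf1*flox/flox replicate 2). *Ruvbl1*, an ATPase of chromatin complexes that binds β-catenin, had 338, 207 and 512 normalized counts (*Trf1*+/+) against 547, 0 and 51.0 (*Trf1*flox/flox), and its log2 fold change of -3.44 ± 2.16 (SE) lay between -5.52 (without *Trf1*flox/flox replicate 1) and -0.97 (without *Trf1*flox/flox replicate 2).

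Few genes that β-catenin is known to switch on could be read. The targets *Axin2*, *Lgr5*, *Nkd1*, *Notum*, *Lef1*, *Tcf7* and *Myc* had no row in the table used here and are not analysed. A missing row is not a level of 0, since 15 of the genes listed had no read in any library. Of 23 targets 7 had a row and 3 were tested, 1 with a positive and 2 with a negative fold change and a median of -0.33, which lay between -0.93 (without *Trf1*flox/flox replicate 1) and 0.22 (without *Trf1*flox/flox replicate 2) with a library left out and was -0.05 with the upper quartile scaling. *Ccnd1*, the gene of cyclin D1, had 2263, 1461 and 839.5 normalized counts (*Trf1*+/+) against 2569, 522 and 1039.9 (*Trf1*flox/flox). These overlapped widely, and the log2 fold change was -0.33 ± 0.67 (SE) and lay between -0.93 (without *Trf1*flox/flox replicate 1) and 0.22 (without *Trf1*flox/flox replicate 2). *Znrf3*, which encodes a ubiquitin ligase that removes Frizzled receptors, had 15.1, 141 and 234 normalized counts (*Trf1*+/+) against 165, 278 and 182 (*Trf1*flox/flox). Its log2 fold change of 1.33 ± 1.48 (SE) lay between 0.16 (without *Trf1*+/+ replicate 1) and 2.09 (without *Trf1*+/+ replicate 3). *Sox9*, a transcription factor known from tubule repair, had 46.3, 303 and 6.90 normalized counts (*Trf1*+/+) against 0.859, 2.19 and 11.0 (*Trf1*flox/flox), with a log2 fold change of -3.55 ± 2.19 (SE), between -4.86 (without *Trf1*+/+ replicate 3) and -2.22 (without *Trf1*+/+ replicate 2).

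β-catenin also links cadherins to the cytoskeleton at junctions. Of 6 tested junction partners 5 had a positive and 1 a negative fold change, with a median of 0.65. None had groups that did not overlap, beside 8.68% of all genes tested. The median was 0.93 with the upper quartile scaling and lay between 0.36 (without *Trf1*+/+ replicate 1) and 1.04 (without *Trf1*+/+ replicate 2) with a library left out, and all 6 were positive without *Trf1*+/+ replicate 1. *Cdh6*, a cadherin of the proximal tubule, had 5.34, 45.6 and 133 normalized counts (*Trf1*+/+) against 486, 342 and 62.0 (*Trf1*flox/flox). *Ctnnal1*, an α-catenin relative, had 8.02, 262 and 862 normalized counts (*Trf1*+/+) against 749, 1537 and 319.7 (*Trf1*flox/flox). For *Cdh6* the log2 fold change was 2.69 ± 1.85 (SE), between 1.47 (without *Trf1*+/+ replicate 1) and 3.67 (without *Trf1*+/+ replicate 3). That of *Ctnnal1* was 2.50 ± 1.47 (SE), between 0.59 (without *Trf1*+/+ replicate 1) and 3.88 (without *Trf1*+/+ replicate 3).

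**Figure D5:**
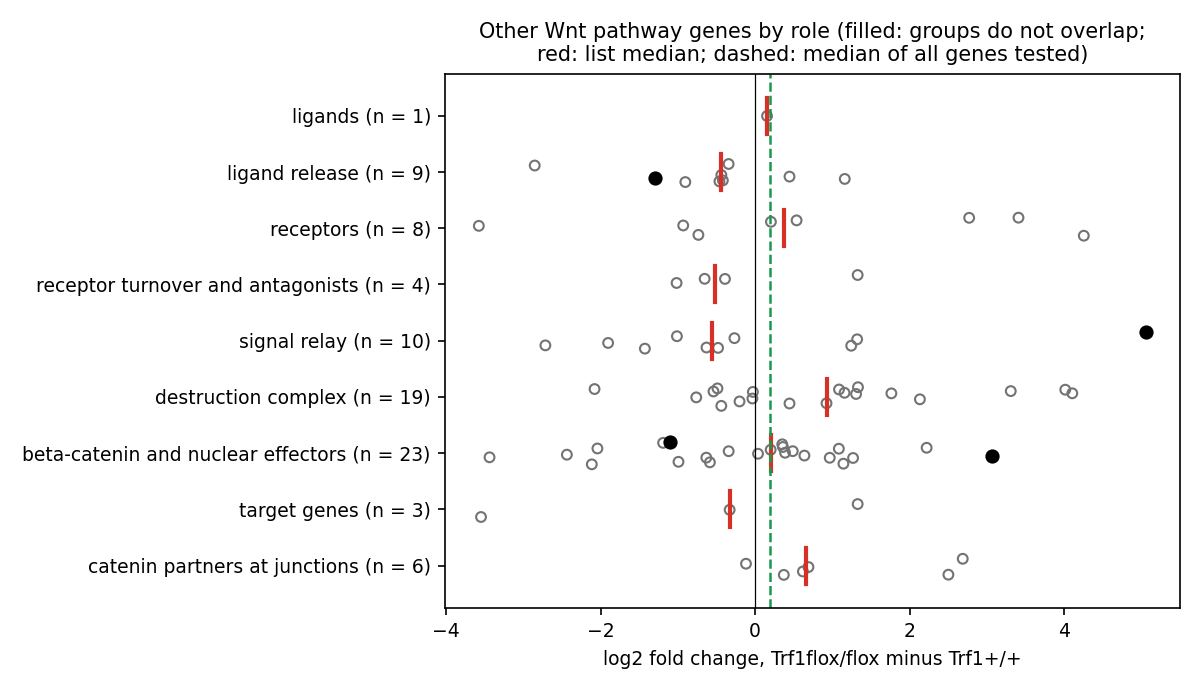
Log2 fold change of Trf1flox/flox minus Trf1+/+ (horizontal axis) for each tested gene of the 9 role lists, without the 10 genes described first; n is the number of genes tested, red ticks are list medians, filled points are genes whose groups do not overlap and the dashed line is the median of all genes tested. List medians run from -0.56 (signal relay) to 0.92 (destruction complex), and 4 points are filled.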

How the data were processed

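The libraries, made from 500 sorted kidney cells each with an oligo(dT) and template-switching kit and PCR, keep no strand and carry no molecular identifiers. Per the study's methods the authors aligned the reads to GRCm38 with TopHat (2.0.10) and counted them with HTSeq (0.6.1) on GENCODE genes; the submitters' processing notes name GRCm39. The deposited signal is the normalized count, the reads of a gene divided by a size factor per library. All values (100%, within 0.001 of a whole number) were whole multiples of the value of 1 read, 0.689 to 1.09 normalized counts, so the reads were recovered. 

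Groups followed the labels. Replicates were numbered in accession order, so the numbers pair no mice. The labels do not say that the libraries come from separate animals, the study's methods do. The p-values set the difference between genotypes against the spread between libraries, which limma draws towards that of genes with a similar level. Differences of log2(normalized count + 1) were tested over the 9966 genes passing the filter with limma 3.58.1 (two-sided, variance trend, Benjamini-Hochberg adjustment). The code was first run on simulated data. The simulation gave every gene the same spread setting, unlike these libraries, so it does not show how the fit performs on them. edgeR 4.0.16 (quasi-likelihood, TMM), DESeq2 1.42.0, pseudocounts of 5 and 0.1, no filter, upper quartile scaling, no variance trend and leaving out libraries were alternatives. Coordinates and exon lengths (for 98.0% of genes) are those of GENCODE M21 on GRCm38. All 10 genes were named; from each role list the 2 genes with the smallest p, any gene called by a tool, and fixed targets. The genes and lists were chosen with earlier results of these data known.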

Additional observations from a re-analysis of the deposited data

How the results depend on the processing

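The log2 fold changes of *Gsk3b*, *Csnk1a1*, *Lrp6* and *Tcf7l2* kept their sign under all 14 alternatives run for each gene, and no alternative gave any of the 10 genes an adjusted p under 0.05. The sign of *Apc* turned in edgeR (-1.17) and DESeq2 (-1.28), and that of *Ctnnb1* in the same tools (-0.29 and -0.36). With both *Trf1*+/+ replicate 1 and *Trf1*flox/flox replicate 2 left out, a choice made after seeing the data, it turned for *Axin1* (-1.31), *Dvl1* (-0.71) and *Lgr4* (0.23). In that fit *Lrp6* was close to 0 (-0.05), so its kept sign gives no direction there. *Gsk3b* was at 1.13 ± 1.31 (SE), below its range with single libraries left out, *Csnk1a1* at -0.79 and *Tcf7l2* at -0.36. With each library left out in turn the fold change ran over -1.67 to 1.96 (*Apc*), -1.47 to 2.04 (*Axin1*), -0.89 to 0.64 (*Ctnnb1*), -0.52 to 2.73 (*Dvl1*), -1.16 to 0.13 (*Lgr4*) and -1.30 to 0.35 (*Lrp5*). Genes with a positive fold change numbered 5 of the 10, 3 in edgeR, 3 in DESeq2 and 3 to 6 with a library left out (lowest without *Trf1*+/+ replicate 2). Groups did not overlap for 2, beside 8.68% of all genes tested, and for 1 with the upper quartile scaling, beside 8.69%. With a library left out they did not overlap for 2 to 4, beside 15.2% to 24.4%. The 4 came without *Trf1*+/+ replicate 2 (*Apc* and *Ctnnb1* in addition), beside 18.9%, and without *Trf1*flox/flox replicate 1 (*Lrp6* and *Tcf7l2* in addition), beside 15.3%. An unadjusted p under 0.05 was reached by 0 to 1, the 1 being *Csnk1a1* without *Trf1*flox/flox replicate 1. Over all genes DESeq2 called 58 where limma called 0; the cause was not tested. The median over the 10 genes, -0.20, ran from -0.73 (without *Trf1*+/+ replicate 2) to 0.29 (without *Trf1*flox/flox replicate 1). Over the 10 genes, the median log2 value of a library had a pooled SD of 0.69 within a genotype. That SD is not an error of the median fold change, so the shifts are not judged by it. The median of the pathway genes ran from -0.20 to 0.13 with a library left out, so neither median had a settled sign. No paired analysis was possible because the labels give no replicate numbers that tie mice of the genotypes together. Low read numbers limit *Lrp5* and *Axin1*, which each had 2 libraries at 3 reads or fewer, and *Dvl1*, which had 1. Why these libraries held so few reads of the 3 genes was not tested.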
